A study of Mus musculus with 4 samples.

Results

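The 36 genes examined here encode transporters and enzymes that carry the carbon of glucose through glycolysis, lactate and pyruvate and around the tricarboxylic acid (TCA) cycle. They were taken by gene symbol from a named list, and a symbol with more than 1 row was represented by the row with the highest mean level. All 36 were found among the 27189 genes measured in spinal motor neurons. The list holds 3 transporters of glucose and lactate, 7 genes of the hexose phase of glycolysis, 6 of its triose phase, 2 lactate dehydrogenase genes, 4 genes of the pyruvate dehydrogenase complex and 14 genes grouped with the TCA cycle.

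Glycolysis splits glucose into pyruvate in the cytosol and yields ATP and NADH without oxygen. Pyruvate is either exchanged with lactate by lactate dehydrogenase or enters mitochondria, where the pyruvate dehydrogenase complex makes acetyl-CoA and the TCA cycle oxidizes it to supply the respiratory chain. Neurons depend heavily on oxidative metabolism, and most of these steps can be run by several isozymes whose genes differ between tissues, such as the muscle, liver and platelet forms of phosphofructokinase or the neuronal and ubiquitous forms of enolase.

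RNA levels were compared between 2 libraries from wild-type SOD1-YFP mice (strain 592) and 2 libraries from G85R SOD1-YFP mice (strain 737), each made from a pool of 3000 to 4000 cell bodies of 1 mouse at 3 months of age on the C57BL/6J x SJL/J background. Both strains carry a human SOD1 genomic fragment, with its own regulatory sequence, fused to YFP, and the G85R strain also carries the mutation and is homozygous for an insertion with a far higher transgene copy number, so that mutation, copy number and strain cannot be told apart. Large ventral horn cell bodies stained with Azure B were captured by laser, and darkly stained cells with aggregates were left out of the G85R samples. No nontransgenic mouse was included, so both groups express the fusion protein.

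Levels are given as RPKM, the mapped reads scaled by transcript length and by the total of the library, which allows genes of different length to be compared. The RPKM of 1 read had a median of 0.0195 to 0.0226 over genes in the 4 libraries. All 7 motor neuron markers were detected, with a summed RPKM of 1202 to 1663. RNA of other cells was also present: the summed RPKM was 812 to 1066 for 7 oligodendrocyte markers, and 9.89 to 11.5 for 6 endothelial markers. For 7 astrocyte markers it was 40.1 and 45.4 in wild-type replicates 1 and 2 and 132 and 56.7 in G85R replicates 1 and 2, and for 9 microglial markers it was 15.6, 17.8, 41.0 and 19.2 in the same order. For the 3 red blood cell markers found of 5 it was 1.82 and 2.10 in wild-type against 11.5 and 10.8 in G85R, which did not overlap, and the globin gene Hbb-b1 was called by limma (5.36-fold higher in G85R, adjusted p = 0.00173). The part of red blood cell RNA in differences between genotypes was not tested. No marker found was at 0 in all libraries, and G85R replicate 1 had the highest astrocyte, oligodendrocyte and microglial sums. Gfap alone was at 91.9 in that library and made up most of its astrocyte sum.

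The RNA levels of the 36 genes spanned more than 4 orders of magnitude, from an RPKM of 0.0743 for the mean of the 4 libraries of Hk2 to 1109 for Aldoa, and 3 of them were among the most abundant messages of the cell. Aldoa, the muscle-type aldolase that splits fructose 1,6-bisphosphate, ranked 17 of 27189 genes. Mdh1, the cytosolic malate dehydrogenase of the malate-aspartate shuttle, ranked 25 with a mean RPKM of 1005, and Eno2, the neuronal enolase, ranked 40 with 856. At the other end, Hk2, Pgam1 and Suclg2 had means below an RPKM of 1 and were not tested between genotypes, and Eno1 was the only other gene under an RPKM of 5.

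**Figure D1:**
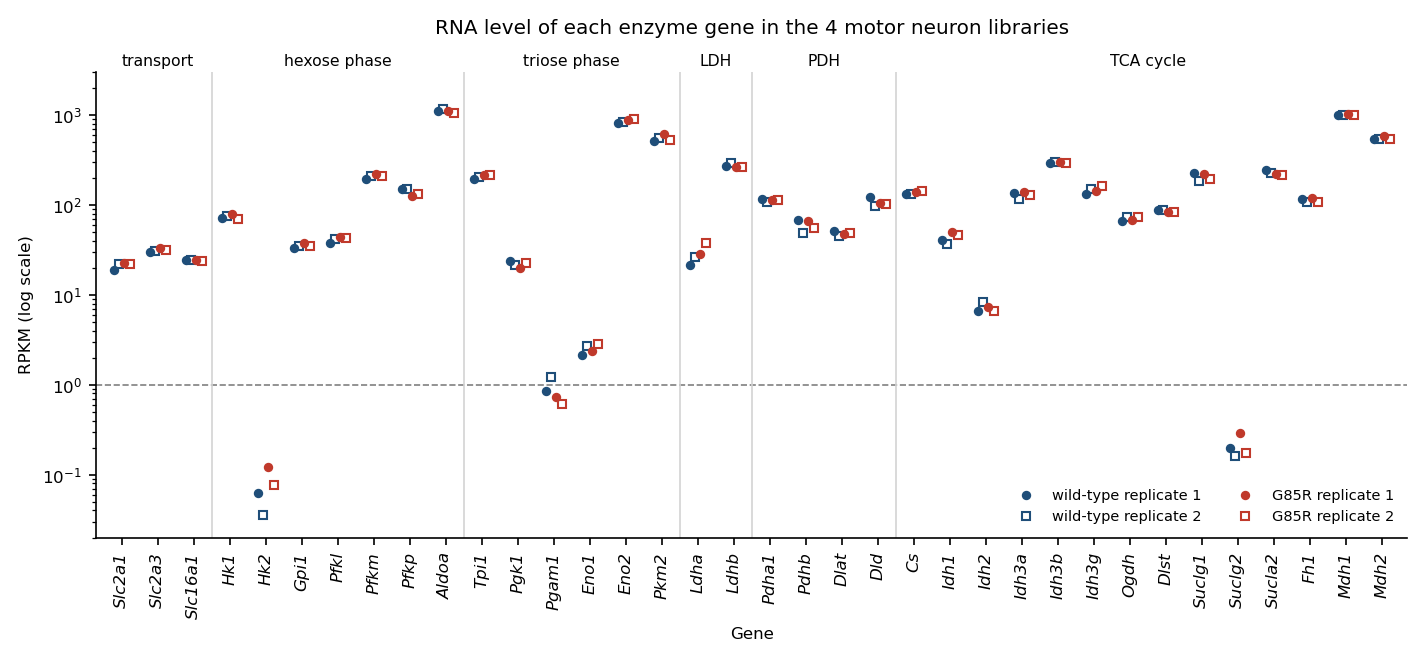
RPKM (log axis) of each of the 36 genes in the 2 wild-type (blue) and 2 G85R (red) libraries, grouped by role (LDH, lactate dehydrogenase; PDH, pyruvate dehydrogenase complex); the dashed line is an RPKM of 1. The points of the 4 libraries lie close together for nearly every gene, while the genes themselves range from 0.0743 for Hk2 to 1109 for Aldoa in mean RPKM.

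Glycolytic genes are known for their processed pseudogenes, and a read from a copied stretch cannot be placed at a single locus. To show how much of each message has a copy elsewhere, every 75-base window of 1 transcript per gene was searched in the mouse genome. The build was NCBIM37, the same sequence as mm9. The share of windows with no other match at up to 2 mismatches was counted, so near copies counted as well as exact ones. This share was at least 90% for 24 of the 36 genes, with 20 at 100%. It was between 50 and 90% for Aldoa (73.6%) and Cs (84.9%) and below 50% for 10 genes, of which 8 belonged to glycolysis or lactate dehydrogenase. The lowest shares were those of Pgam1 (5.24%), Pgk1 (8.22%) and Eno1 (14.7%), whose coding sequences held no unique window at this stringency. Gpi1 (21.1%), Pkm2 (27.8%), Ldhb (28.3%), Pdhb (31.2%), Ldha (39.2%), Suclg2 (40.1%) and Tpi1 (49.4%) followed. With no mismatch allowed, the shares of Pgam1, Pgk1 and Eno1 were 11.1%, 8.62% and 34.6%. Those of the other genes below 50% were higher: Gpi1 82.2%, Pkm2 77.5%, Ldhb 80.7%, Pdhb 79.7%, Ldha 92.8%, Suclg2 72.6% and Tpi1 87.5%. Of the 14 TCA cycle genes, 12 were at 90% or more. The paper counts reads that mapped to a single location, and it left the chaperone gene Hspa8 unevaluated because of its processed pseudogenes. Whether reads with several placements entered the RPKM is not stated outright. The part of shared sequence in the low levels was not tested.

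**Figure D2:**
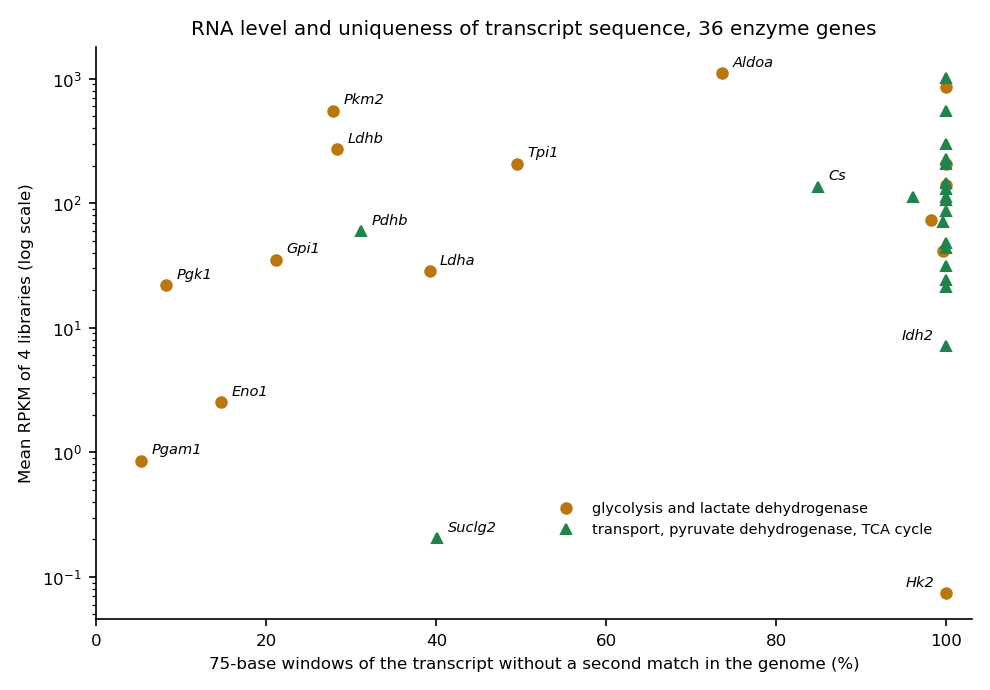
Mean RPKM of the 4 libraries (log axis) against the percentage of 75-base transcript windows with no other genomic match at up to 2 mismatches, for the 36 genes; circles are glycolysis and lactate dehydrogenase, triangles the remaining genes. Pgam1 and Eno1 lie at low levels with 5.24% and 14.7% of unique windows, Hk2 and Idh2 at low levels with 100%, and Pkm2 and Ldhb at high levels with under 30%.

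A further case was Gapdh, the glyceraldehyde 3-phosphate dehydrogenase gene, which is not among the 36 but is needed for the same route. Its higher row was at an RPKM of 0.111 in wild-type replicate 1, was listed at 0 in wild-type replicate 2, and was at 0.0304 and 0.0859 in G85R replicates 1 and 2, and its other row was listed at 0 in all 4 libraries. Only 12.3% of its windows were unique, and its windows matched 253 other places, of which 83 matched at least 25% of the windows. Gapdh RNA could therefore not be compared with that of its neighbors in the pathway.

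Entry of glucose and lactate involved similar levels of several transporters. Slc2a3, the high-affinity neuronal glucose transporter GLUT3, was at an RPKM of 30.0 and 30.5 in wild-type against 33.3 and 31.1 in G85R libraries. Slc2a1, the GLUT1 transporter of the blood-brain barrier and glia, was at 18.9 and 22.3 in wild-type against 22.5 and 22.1 in G85R. Slc2a3 thus gave 59.5% ± 2.49 (SD, n = 2) of the summed RPKM of the 4 class I glucose transporter genes in wild-type against 58.8% ± 0.882 (SD, n = 2) in G85R, with overlapping groups, and Slc2a2 and Slc2a4 each stayed below 0.5% in every library. Among related transporters outside this class, Slc2a6 and Slc2a8 were named after their values were seen. Their mean RPKM over the 4 libraries was 39.3 and 23.9, beside 31.2 for Slc2a3 and 21.4 for Slc2a1. Slc2a13 was lower with a mean of 2.51, as were Slc2a5 (0.775), Slc2a12 (0.0811) and Slc2a10 (0.0466). Slc2a6 was at 32.8 and 46.4 in wild-type against 32.2 and 46.0 in G85R, and Slc2a8 at 21.3 and 27.2 against 21.4 and 26.0. Among the monocarboxylate transporters, Slc16a1 (MCT1) was at an RPKM of 24.5 and 24.7 in wild-type against 24.2 and 24.0 in G85R. It made up 95.5% ± 1.25 (SD, n = 2) of the sum in wild-type, against 2.67% for Slc16a7, the MCT2 transporter usually assigned to neurons, and 1.87% for Slc16a3.

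Hexokinase, which traps glucose as glucose 6-phosphate, was represented almost only by Hk1. Hk1, the brain hexokinase bound to mitochondria, was at an RPKM of 71.4 and 75 in wild-type against 78.6 and 69.4 in G85R libraries. Hk2, the insulin-responsive form of muscle, was at 0.0623 and 0.0351 in wild-type against 0.123 and 0.0770 in G85R, although 100% of its windows were unique. The Hk1 level was 641 to 2134 times that of Hk2 in the 4 libraries, and Hk1 gave 99.5% ± 0.0518 (SD, n = 2) of the sum of the 4 hexokinase genes compared in wild-type, with Hk3 and Hkdc1 each below 0.4% in every library. Gpi1, which converts glucose 6-phosphate to fructose 6-phosphate, was at an RPKM of 33.3 to 37.9.

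Phosphofructokinase, the committed and most regulated step, drew on all 3 of its isozyme genes. The muscle form Pfkm was at an RPKM of 192 and 212 in wild-type against 219 and 209 in G85R libraries. The platelet form Pfkp was at 149 and 150 in wild-type against 126 and 131 in G85R, so its groups did not overlap. The liver form Pfkl was at 37.5 and 41.3 in wild-type against 43.5 and 42.5 in G85R. In wild-type the shares were 51.7% ± 1.25 for Pfkm, 38.2% ± 1.5 for Pfkp and 10.1% ± 0.252 for Pfkl (SD, n = 2), and in G85R they were 55.5%, 33.3% and 11.2%. The order Pfkm, Pfkp, Pfkl held in all 4 libraries.

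Aldolase was shared between the muscle form and the brain form. Aldoa was at an RPKM of 1109 and 1160 in wild-type against 1117 and 1050 in G85R libraries. Aldoc, the brain aldolase, which is also abundant in astrocytes, was at 458 and 443 in wild-type against 671 and 458 in G85R. The Aldoa share of their sum was 71.6% ± 1.15 (SD, n = 2) in wild-type against 66.1% ± 5.03 (SD, n = 2) in G85R. The high Aldoc value and the low Aldoa share, 62.5% against 69.6% in the other G85R library, both came from G85R replicate 1. There the summed RPKM of the 7 astrocyte markers was 132 against 40.1 to 56.7 in the other libraries. Most of that sum was Gfap, at 91.9 against 11.5 to 28.4. The other markers were also highest there but by less, such as Slc1a3 (2.81 against 0.990 to 1.35) and Aldh1l1 (4.27 against 2.97 to 4.06). The part of astrocyte RNA in the Aldoc value and the Aldoa share was not tested.

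The triose phase of the glycolytic route began with high Tpi1, the triose phosphate isomerase, at an RPKM of 196 and 205 in wild-type against 215 and 214 in G85R libraries. Pgk1, the first ATP-yielding enzyme, was at only 20.1 to 23.9 over the 4 libraries, with 8.22% of unique windows, and its testis form Pgk2 was listed at 0 in all of them. Phosphoglycerate mutase was low for both isozymes. Pgam1, the brain form, was at 0.859 and 1.23 in wild-type against 0.736 and 0.616 in G85R, and Pgam2, the muscle form, was at 2.00 and 1.66 in wild-type against 1.88 and 3.16 in G85R. Taken as deposited, Pgam2 gave 63.7% ± 8.93 (SD, n = 2) of the sum in wild-type. Dividing each RPKM by the share of unique windows, an alternative chosen after the data were seen, brought the Pgam2 share down to 8.74%, so the leading isozyme of this step depended on how shared sequence was treated.

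A stretch of the coding sequence is shown for both mutases to illustrate how the copies bear on this step. The capitals mark the 11 bases that differ between them over 30 aligned bases, read on the coding strand. Pgam1 lies in exon 2 at chr19:41990337-41990366 (plus strand), and Pgam2 in exon 1 at chr11:5703281-5703310 (minus strand).
Pgam1: CCTGaTcacCCctTctacaGcAAcatcagc
Pgam2: GAGAaAcacAActActacaCcTCcatcagc
The Pgam1 stretch had 4 exact places in the genome and the Pgam2 stretch 1, and both coding sequences were identical at 74.8% of 762 aligned bases. Within this stretch the isozymes can be told apart from each other, while the exact copies of Pgam1 cannot be told from Pgam1.

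Enolase RNA, taken as deposited, was almost only that of the neuronal isozyme. Eno2, the neuronal enolase (gamma), was at an RPKM of 819 and 833 in wild-type against 875 and 896 in G85R libraries. Eno1, the ubiquitous enolase (alpha), was at 2.14 and 2.68 in wild-type against 2.39 and 2.86 in G85R, and Eno3, the muscle enolase (beta), at 0.754 and 0.887 in wild-type against 1.43 and 1.61 in G85R. The Eno2 level was 310 to 383 times that of Eno1. Eno2 gave 99.6% ± 0.0530 (SD, n = 2) of the sum in wild-type. Whether division by the share of unique windows restores any Eno1 reads lost to copies was not tested, so the Eno1 level remains uncertain. With that division Eno2 gave 98.0%, the share of unique windows being 100% for Eno2 and 14.7% for Eno1. The corresponding stretches of exon 7, with the 6 differing bases in capitals, show the same asymmetry, that of Eno1 being at chr4:149619416-149619445 (plus strand) with 4 exact places in the genome and that of Eno2 at chr6:124716124-124716153 (minus strand) with 1.
Eno1: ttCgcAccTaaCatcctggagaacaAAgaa
Eno2: ttTgcCccCaaTatcctggagaacaGCgaa
Their coding sequences were identical at 75.1% of 1305 bases.

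Pyruvate kinase, the last glycolytic step, was supplied by Pkm2, at an RPKM of 510 and 557 in wild-type against 611 and 531 in G85R libraries. The row combines 4 UCSC transcripts, so the M1 and M2 splice forms could not be separated, and the liver and red cell gene Pklr reached at most 0.113.

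Lactate dehydrogenase RNA was mostly of the heart type. Ldhb, whose subunit favors the oxidation of lactate to pyruvate, was at an RPKM of 268 and 292 in wild-type against 261 and 265 in G85R libraries. Ldha, whose subunit favors the making of lactate, was at 21.3 and 26.0 in wild-type against 28.4 and 37.9 in G85R, so both G85R libraries lay above both wild-type libraries and G85R replicate 2 was the highest. The ratio of Ldhb to Ldha was 12.6 and 11.2 in wild-type against 9.20 and 6.99 in G85R. The Ldhb share was accordingly 92.2% ± 0.568 in wild-type against 88.8% ± 1.91 in G85R (SD, n = 2), and the testis gene Ldhc was listed at 0. The stretches shown lie in exon 5 of each gene, at chr7:54106293-54106322 (plus strand) for Ldha and chr6:142444194-142444223 (minus strand) for Ldhb, with the 9 differing bases in capitals.
Ldha: TtTccCaaAAaccgAgtAattggaagTggT
Ldhb: CtAccTaaGCaccgTgtGattggaagCggA
The Ldha stretch had 1 exact place in the genome and the Ldhb stretch 2. Over the whole transcripts 39.2% of windows were unique for Ldha and 28.3% for Ldhb at up to 2 mismatches. With none allowed it was 92.8% and 80.7%. Dividing by the shares at up to 2 mismatches gave an Ldhb share of 94.3% in wild-type.

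The 4 listed genes of the pyruvate dehydrogenase complex, which makes acetyl-CoA, ran from an RPKM of 45.5 to 123. Pdha1, the E1 alpha subunit, was at an RPKM of 108 to 115, and its testis copy Pdha2 was listed at 0 in all 4 libraries. Pdhb, the E1 beta subunit, was at 67.6 and 48.1 in wild-type against 66.8 and 54.8 in G85R. On the log2 scale its wild-type libraries differed by 0.492, the most of any tested gene of the list. Dlat, the E2 subunit, was at 45.5 to 50.9, and Dld, the E3 subunit that is shared with the oxoglutarate dehydrogenase complex, at 123 and 96.1 in wild-type against 105 and 102 in G85R. Of the kinases that switch the complex off, Pdk2 led with 67.6% ± 1.71 (SD, n = 2) of the sum in wild-type against 72.0% in G85R, followed by Pdk3 with 27.0% and 22.1%, while Pdk1 and Pdk4 stayed below 5% in every library.

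Most TCA cycle genes had high levels. Citrate synthase (Cs), which starts the cycle, was at an RPKM of 131 and 132 in wild-type against 138 and 141 in G85R libraries. The 3 subunits of the NAD-dependent isocitrate dehydrogenase, which belong to 1 enzyme, were at 115 to 138 for Idh3a, the catalytic subunit, at 292 to 302 for Idh3b and at 131 to 160 for Idh3g. Idh3b thus exceeded Idh3a 2.16-fold to 2.60-fold and Idh3g 1.84-fold to 2.22-fold.

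The NADP-dependent isocitrate dehydrogenases were lower than the NAD-dependent enzyme. Idh1, the cytosolic form, which is not itself part of the cycle and supplies NADPH, was at an RPKM of 41.0 and 36.6 in wild-type against 50.1 and 45.7 in G85R libraries, with no overlap. Idh2, the mitochondrial form, was at 6.61 and 8.30 in wild-type against 7.27 and 6.53 in G85R. Both had 100% of unique windows, and Idh1 gave 83.8% ± 3.25 (SD, n = 2) of their sum in wild-type against 87.4% ± 0.127 (SD, n = 2) in G85R.

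The E1 subunit of the oxoglutarate dehydrogenase complex came from a pair of genes of nearly equal level. Ogdh was at an RPKM of 65.4 and 73.1 in wild-type against 68.5 and 73.9 in G85R, and Ogdhl, a related gene known mostly from the nervous system, was at 49.5 and 56.5 in wild-type against 72.5 and 71.5 in G85R. The Ogdh share was 56.7% ± 0.362 in wild-type against 49.7% ± 1.60 in G85R (SD, n = 2), a difference of -6.97 percentage points. The E2 subunit Dlst was at 88.0 in each wild-type library against 83.8 and 83.7 in G85R.

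Succinyl-CoA synthetase consists of the alpha subunit Suclg1 and a beta subunit that decides between ATP (Sucla2) and GTP (Suclg2) as product. Suclg1 was at an RPKM of 226 and 185 in wild-type against 218 and 194 in G85R, and Sucla2 was at 245 and 225 in wild-type against 221 and 215 in G85R. Suclg2 was at 0.20 and 0.160 in wild-type against 0.287 and 0.175 in G85R, and the Sucla2 level was 769 to 1408 times as high. In wild-type Sucla2 gave 99.9% of the sum as deposited and 99.8% after division by the share of unique windows. Whether this division restores any Suclg2 reads lost to copies was not tested. Stretches of exon 7 of Suclg2, at chr6:95529200-95529229 (minus strand), and of exon 6 of Sucla2, at chr14:73981528-73981557 (plus strand), are shown with their 10 differing bases in capitals to let the forms be compared.
Suclg2: gcTgcagaTCaGatTaCAaagctGtaCCat
Sucla2: gcAgcagaAAaCatGaTCaagctTtaTAat
Each had 1 exact place in the genome, and the coding sequences were identical at 61.3% of 1278 aligned bases. Beyond this stretch, 4.97% of the coding windows of Suclg2 were unique at up to 2 mismatches, and 57.2% with none allowed.

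The remaining steps were again high. Fumarase (Fh1) was at an RPKM of 107 to 119. Mdh1 was at 1008 in each wild-type library against 1014 and 991 in G85R, and Mdh2, the malate dehydrogenase of the cycle itself, was at 538 and 546 in wild-type against 575 and 541 in G85R. The cytosolic form exceeded the mitochondrial form 1.76-fold to 1.87-fold, and both had 100% of unique windows.

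**Figure D3:**
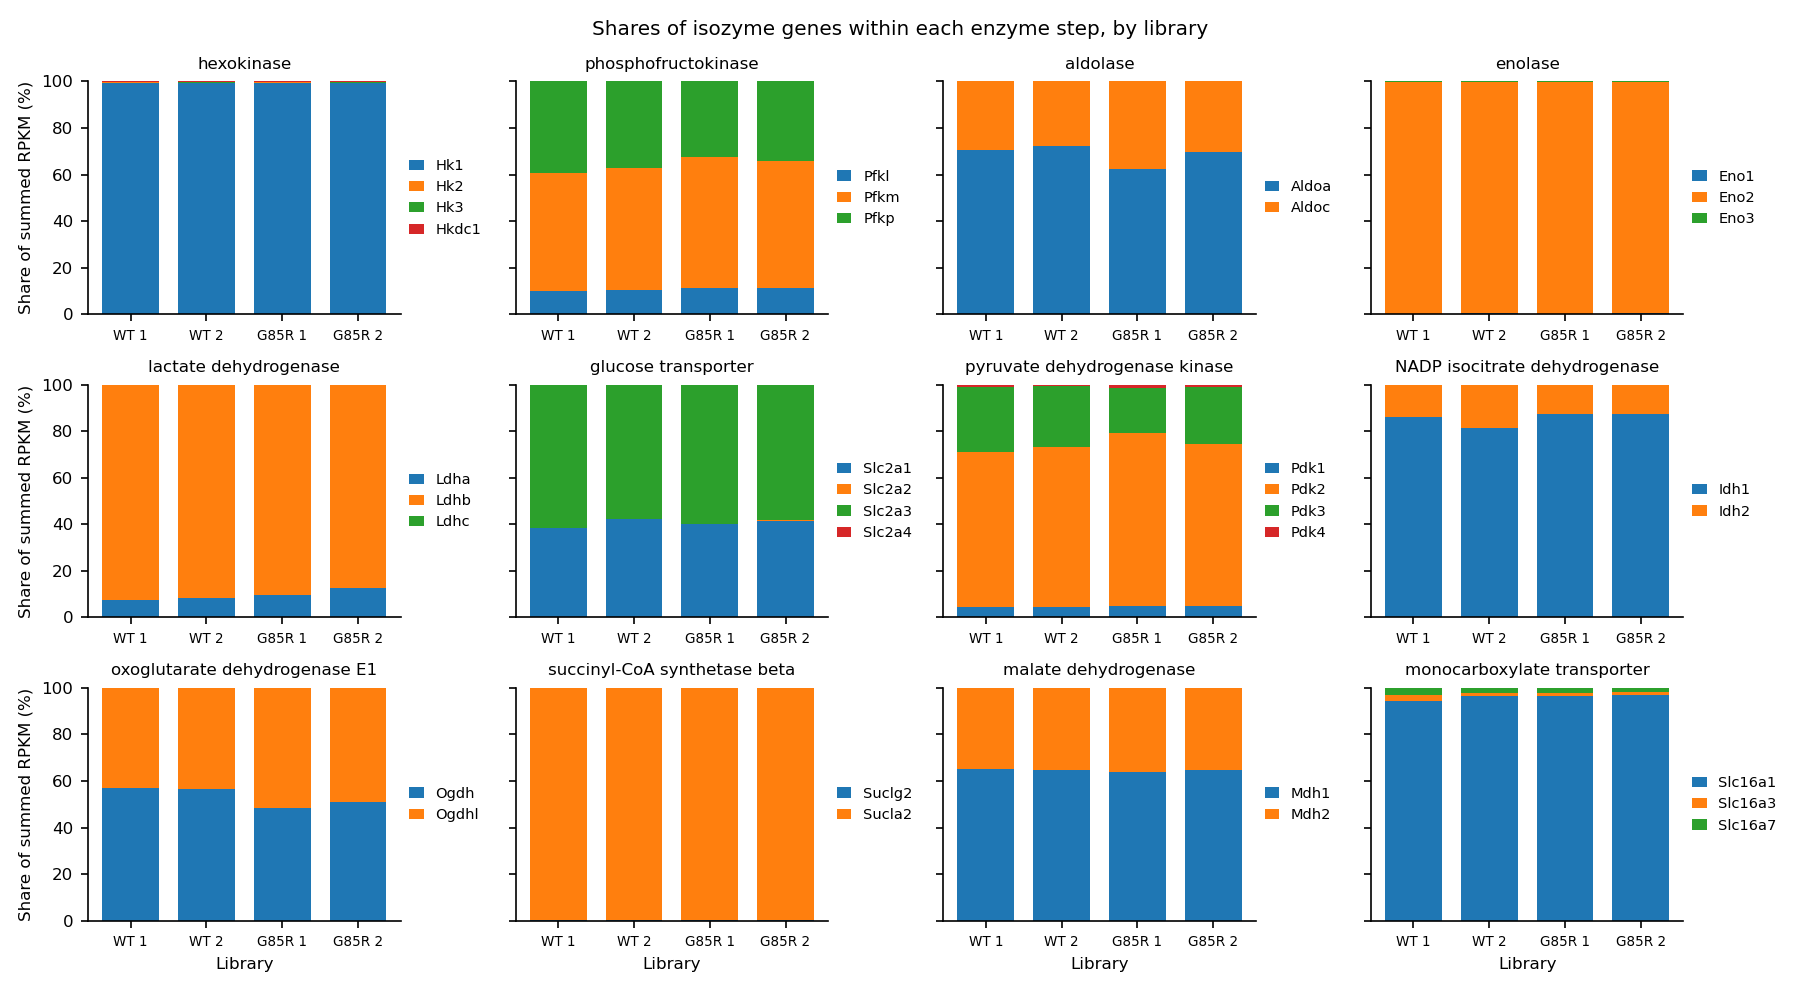
Share (%) of each isozyme gene in the summed RPKM of its enzyme step, 1 bar per library (WT, wild-type; numbers are replicates), for 12 of the 16 steps. Eno2, Hk1 and Sucla2 fill nearly the whole bar in every library, phosphofructokinase, aldolase, glucose transport, oxoglutarate dehydrogenase and malate dehydrogenase are mixtures, and the Ogdh share is 56.7% in wild-type and 49.7% in G85R.

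Genotypes were compared to ask whether the presymptomatic mutant neurons differ in the RNA of this route. Of the 33 genes tested, none passed limma's test at an adjusted p under 0.05, against 74 of 11530 tested genes over the whole transcriptome (0.642%). At an unadjusted p under 0.05 there were 2 genes, Ldha and Idh1, both higher in G85R, beside 11.0% of all tested genes. By a log-linear test of the kind the study used, built here as a Poisson model of rounded RPKM, 0 of 36 genes were called at an adjusted p under 0.05 (0.228% of all genes) and 1, Eno2, had an unadjusted p under 0.05 (1.29% of all genes). Both G85R libraries were above both wild-type libraries for 7 of the 33 genes, beside 17.3% of all tested genes, and below them for 5, beside 23.9%. The other 21 overlapped. All libraries came from separate mice, and fewer cells of a type and less RNA per cell cannot be told apart in such samples.

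The differences were small as well as uncalled. The log2 fold change on log2(RPKM + 0.1), G85R over wild-type, ran from -0.21 for Pfkp to 0.48 for Ldha, with a median of 0.04 beside -0.02 for all tested genes, and 22 of the 33 genes had the higher mean in G85R against 45.3% of all tested genes. The 95% interval of the fold change lay within 1.5-fold in either direction for 32 of the 33 genes, the exception being Ldha, and for 67.3% of all tested genes. The median absolute log2 difference over the tested genes of the list was 0.127 between the wild-type libraries, 0.0884 between the G85R libraries and 0.0728 to 0.122 between libraries of different genotype, so libraries of different genotype were no farther apart than the wild-type mice were from each other.

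**Figure D4:**
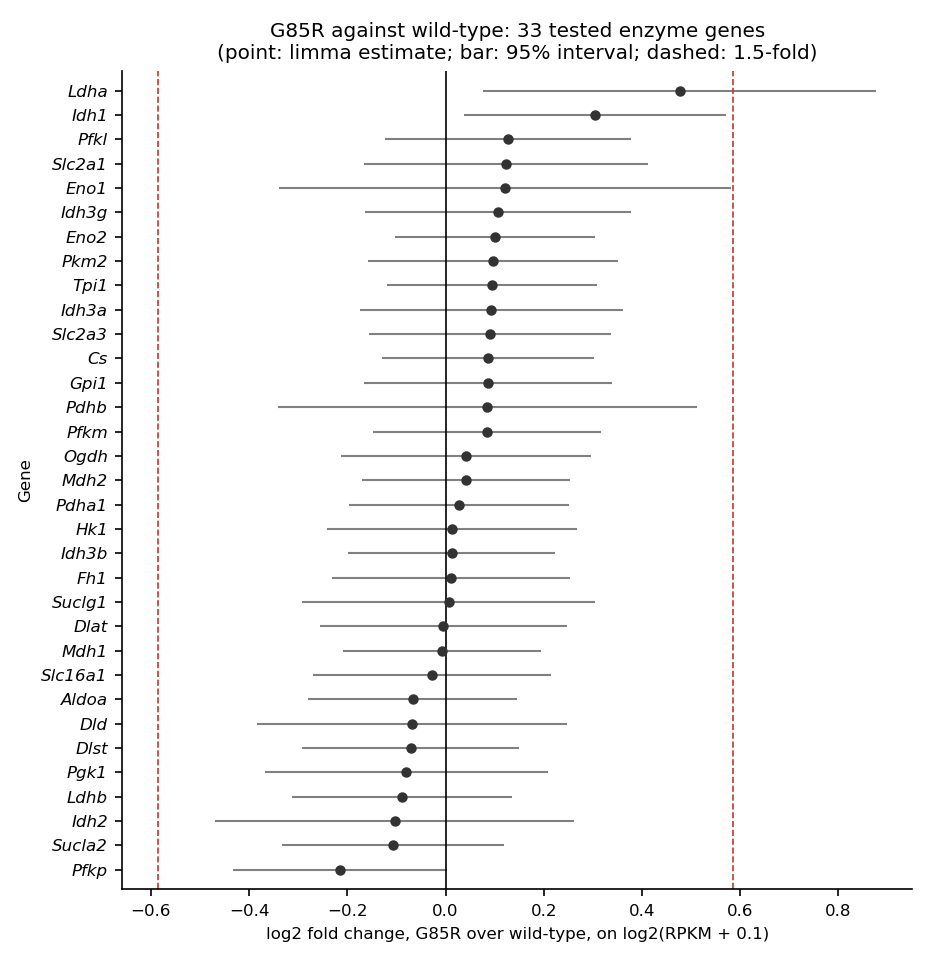
Log2 fold change (G85R over wild-type, on log2(RPKM + 0.1)) of the 33 tested genes with its 95% interval from limma, in order of size; dashed lines mark 1.5-fold. The intervals of Ldha and Idh1 lie above 0, that of Ldha alone passes the 1.5-fold line, and the other 31 include 0.

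By role, the medians of the log2 fold changes were 0.09 for the 3 transporters, 0.05 for the 6 tested genes of the hexose phase and 0.10 for the 5 of the triose phase. They were 0.01 for the pyruvate dehydrogenase subunits and 0.01 for the 13 tested TCA cycle genes. The lactate dehydrogenase median of 0.19 was the midpoint of 2 genes that went opposite ways, Ldha at 0.48 and the more abundant Ldhb at -0.09. Ldha was the largest difference. Its level in G85R was 1.39 times that in wild-type (95% interval 1.05 to 1.84), with a log2 fold change of 0.48 ± 0.17 (SE) and an adjusted p of 0.371 by limma. Its unadjusted p was 0.0259, which no longer passed 0.05 when wild-type replicate 1 or G85R replicate 2 was left out or when no filter on low levels was applied, and its log2 fold change ran from 0.27 to 0.68 over the alternatives tried. With a block for replicate number, limma called Ldha (adjusted p = 0.0158), but the labels do not say what same-numbered libraries share. The deviations of same-numbered libraries correlated at 0.22 over 11530 genes. The Ldha gene lies at chr7:54096845-54110997. Of its windows, 39.2% were unique at up to 2 mismatches and 92.8% with none allowed.

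Idh1, at chr1:65205190-65233053, followed with a log2 fold change of 0.30 ± 0.11 (SE, adjusted p = 0.396 by limma) and an interval of 1.03 to 1.49 in fold. Its unadjusted p of 0.0307 did not pass 0.05 without wild-type replicate 2 or without G85R replicate 1, nor with no filter or with eBayes without trend, and its log2 fold change ran from 0.22 to 0.39 over the alternatives. Pfkp, at chr13:6579014-6648023, was the largest difference toward lower levels in G85R, with a log2 fold change of -0.21 ± 0.09 (SE) and limma's adjusted p of 0.461. Its interval ran from 0.741 to 1.00 in fold. The unadjusted p of Pfkp by limma was 0.0523. It passed 0.05 with no filter, after quantile normalization and with the block for replicate number. No setting called Pfkp at an adjusted p under 0.05, and its log2 fold change ran from -0.26 to -0.19 over the alternatives.

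The next differences were smaller. The genotypes overlapped for Slc2a1, Eno1 and Idh3g and did not for Pfkl and Sucla2. Limma gave log2 fold changes of 0.13 ± 0.11 for Pfkl, 0.12 ± 0.12 for Slc2a1, 0.12 ± 0.19 for Eno1, -0.11 ± 0.10 for Sucla2 and 0.11 ± 0.11 for Idh3g (SE), and adjusted p-values between 0.747 for Pfkl and 0.897 for Eno1. For the abundant genes the 95% interval was 0.824 to 1.11 in fold for Aldoa, 0.931 to 1.23 for Eno2, 0.865 to 1.14 for Mdh1 and 0.806 to 1.10 for Ldhb.

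The mixture of isozymes was compared over 16 steps by the share of the leading isozyme. With 2 libraries a genotype the exact permutation test cannot give a two-sided p below 0.333, so no share could pass 0.05. In percentage points, G85R minus wild-type, the share differed by -6.97 for Ogdh, -5.52 for Aldoa, 4.49 for Pdk2, 3.81 for Pfkm, 3.61 for Idh1 and -3.39 for Ldhb, each without overlap and each with an exact p of 0.333. Ogdh stayed between -8.10 and -5.84 points and Pfkm between 2.93 and 4.69 when any 1 library was left out. The others moved by over 1.5 times without 1 library. Aldoa came to -1.96 points without G85R replicate 1 and to -9.08 without G85R replicate 2, and Pdk2 to 2.13 and 6.85 points in the same way. Idh1 came to 1.31 points without wild-type replicate 2 and to 5.90 without wild-type replicate 1, and Ldhb to -2.03 points without G85R replicate 2. The Pgam2 share differed by 14.1 points at RPKM of 0.616 to 3.16, by 7.78 to 20.4 points with 1 library left out, and by 7.76 points after division by the share of unique windows, which also turned the leading isozyme. The leading shares of Hk1 (-0.13 points), Eno2 (-0.08), Slc16a1 (1.24), Mdh1 (-0.78) and Pgam2 did not overlap between genotypes either. Lack of overlap was thus usual among the 16 steps and did not set any of them apart. Only the shares of Slc2a3, Sucla2, Pgk1, Pkm2 and Pdha1 overlapped.

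The other genes of these pathways, a list of 85 symbols for further isozymes, regulators, shuttles, carriers and the pentose phosphate route, were read from the same fit. Of these, 78 were found and 55 were tested. None passed an adjusted p of 0.05 by limma, and 8 had an unadjusted p under 0.05, beside 11.0% of all tested genes. The median log2 fold change was -0.02, and G85R libraries were both above wild-type for 16 of the 55, beside 17.3% of all tested genes, and both below for 14, beside 23.9%.

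The 6 genes of that list with an unadjusted p under 0.05 and a higher level in G85R were Eno3 (log2 fold change 0.82), Ldhd, the mitochondrial D-lactate dehydrogenase (0.47), Pgm1, a phosphoglucomutase (0.47), Ogdhl (0.45), Brp44l, a subunit of the mitochondrial pyruvate carrier (0.38), and Tkt, the transketolase of the pentose phosphate route (0.29). The lower ones were Me3, the mitochondrial NADP malic enzyme, and Slc25a10, the dicarboxylate carrier, both at -0.45. Their adjusted p-values by limma ran from 0.177 for Ogdhl to 0.416 for Pgm1. Ogdhl was at an RPKM of 49.5 and 56.5 in wild-type against 72.5 and 71.5 in G85R, and Me3 at 23.2 and 24.7 in wild-type against 19.0 and 16.2 in G85R. Aldoc was called by the log-linear test and not by limma (log2 fold change 0.30 ± 0.17 SE, adjusted p = 0.600), and its excess lay in G85R replicate 1, the library with the highest astrocyte markers.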

How the data were processed

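Laser-captured motor neuron RNA of 4 mice was sequenced as 75-base single reads after polyA selection. The authors mapped the reads with Bowtie 0.12.3 to mm9 and a splice database of UCSC Known Genes and quantified them with Cufflinks. The deposited values are RPKM for 27189 genes, given plain and with 1 read added to every gene, and their difference gave the RPKM of 1 read. Reads on genes, estimated from it, were 21560318 to 25186594 per library.

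Plain RPKM were analyzed as deposited. The test between genotypes (2 against 2 libraries) was that of limma 3.58.1 (R 4.3.3; lmFit, then eBayes with trend), run on log2(RPKM + 0.1). It covered the 11530 genes whose mean RPKM reached 1, with Benjamini-Hochberg adjustment. The log-linear test was a Poisson model of the rounded RPKM with 1 read added, over all genes. The limma step was tested on simulated data. Shares were percentages of summed RPKM. Windows of 75 bases of 1 gencode vM1 transcript per gene were searched in NCBIM37 for exact and up to 2-mismatch matches. Python 3.11.15, numpy 2.4.6, pandas 2.3.3, scipy 1.17.1 and matplotlib 3.10.9 were used.

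All 36 genes were described, with full statistics for those with an unadjusted p under 0.05 and the largest fold changes up to 8 genes. Of the other pathway genes, remaining isozymes, Gapdh and those with an unadjusted p under 0.05 were named. The genes and lists were chosen with earlier results of these data known. Alternatives were pseudocounts of 1 and 0.01, other minimum RPKM, a replicate block, quantile normalization or median-ratio rescaling, other eBayes settings, the log-linear test, leaving out each library and, added later, division by the share of unique windows. Splicing and qRT-PCR were not analysed here, and some isozymes are not reported here and were left out of the shares.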

Additional observations from a re-analysis of the deposited data

How the results depend on the processing

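With 2 mice a genotype and mutation, copy number and strain changing together, only large differences can be called, and low RPKM rest on few reads. Over all genes, the 74 calls became 17 at a minimum mean RPKM of 5, 112 with no filter, 40 after quantile normalization, 49 by eBayes without trend, 1272 at an unadjusted p and 80 to 189 with 1 library left out, where the lone library is assumed to vary like the others. The log-linear test made 62 calls. No gene of the list was called except under the replicate block (1, Ldha, adjusted p = 0.0158) or at an unadjusted p (2). The block called 527 genes in all and 4 other pathway genes (Ldhd, Me3, Ogdhl and Slc25a10), the log-linear test called 1 (Aldoc), and 8 passed an unadjusted p. Same-numbered libraries share only a number as far as the labels say, and their deviations correlated at 0.22 over 11530 genes. The adjusted p of Ldha ran from 0.0158 to 1 over 15 settings and that of Idh1 from 0.0830 to 1. The median log2 fold change of the list was 0.0029 after quantile normalization and -0.0012 to 0.0740 with 1 library left out. That of all genes was 0.13 by the log-linear test over unfiltered genes. Eno1 turned from 0.12 to -0.03 without wild-type replicate 1 and to -0.0017 without G85R replicate 2, in a range of -0.0349 to 0.278 with 1 library left out. Division by the share of unique windows moved the wild-type shares to 77.4% for Aldoa, 8.74% for Pgam2, 98.0% for Eno2, 94.3% for Ldhb and 99.8% for Sucla2, whose difference between genotypes became -0.0726 points. Quantile normalization gave 64.5% for Mdh1, whose difference became 0.241 points. Except where division by unique windows acts by its own construction, the cause was not tested. Under the remaining settings the count over all genes ran from 62 to 101, and the shares and medians moved by less than the replicate spread.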

Other observations

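Fbp2, the muscle fructose bisphosphatase of gluconeogenesis, fell below the minimum mean RPKM and was not tested, and it was picked out after its values were seen. It was at an RPKM of 0.740 and 0.721 in wild-type against 0.116 and 0.136 in G85R libraries, with no overlap. The liver gene Fbp1 was at 0.0674 or less in all 4 libraries. Other genes linked to this route were tested and not called by limma. Pcx, the pyruvate carboxylase, was at 21.9 and 25.6 in wild-type against 23.5 and 21.4 in G85R libraries, which overlapped. Pck2, the mitochondrial phosphoenolpyruvate carboxykinase, was at 12.5 and 14.8 in wild-type against 11.6 and 11.6 in G85R, without overlap, and G6pc3, a glucose 6-phosphatase, at 51.8 and 60.5 against 59.7 and 69.3, which overlapped.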
